A study of Mus musculus with 60 samples.

Results

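The 10 genes described here are amino acid sensors and brakes of mTORC1: Castor1, Castor2, Sesn1, Sesn2, Sesn3, Depdc5, Nprl2, Nprl3, Deptor and Ddit4. They were listed by symbol, and all 10 had a row among the 18088 Ensembl identifiers of the table. The list was selected on values of Castor2, which had been seen to be lower with fluoxetine in wild types and higher with lithium in heterozygotes, so all values of Castor2 are given as a description, with standard errors and no test. The other 9 genes were tested. Bulk RNA-seq was available for prefrontal cortex of C57BL/6J mice at postnatal day 25, with 60 libraries in 12 groups of 5. The genotypes were wild type (WT) and Tbr1+/K228E (heterozygous, HT), where Tbr1 encodes a transcription factor of cortical projection neurons. Females and males of each genotype received vehicle, fluoxetine (a serotonin reuptake inhibitor) or lithium (a mood stabiliser) from day 3 to day 24, by way of the milk of the mother. Per the labels this route was shared by all groups, and the dose that reached a pup is not given in the sources used here. Neither litter nor batch is named in the labels. The p-values thus cover the spread between these libraries, which may be in part technical, and littermates within a group would make them too small.

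mTORC1 is a kinase complex on the lysosome that promotes growth and protein synthesis when amino acids are plentiful. Its activation needs the Rag GTPases, which the GATOR1 complex (Depdc5, Nprl2 and Nprl3) turns off, and GATOR1 is itself held back by GATOR2. Castor1 and Castor2 are paralogous cytosolic proteins that bind GATOR2. Castor1 senses arginine and lets go of GATOR2 when arginine binds, and Sestrin2, the product of Sesn2, does the same for leucine. Deptor binds the mTOR kinase and inhibits it, and Ddit4 (also called REDD1) is a stress- and glucocorticoid-induced protein that restrains mTORC1 through the TSC complex. Loss-of-function variants in the GATOR1 genes are a known cause of focal epilepsy with cortical malformation. Lithium inhibits the kinase GSK3 and inositol monophosphatase. These statements are background, and transcript levels do not measure the activity of any of these proteins.

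The promoter windows of both Castor paralogues and of the GATOR1 pair whose transcripts moved together are shown. They are taken from RefSeq on build GRCm38.p6 and run from 250 bases before to 50 bases after the annotated start. They are written 5′ to 3′ on the strand of the gene, with GGGCGG (the core of a GC box) and TGACG (a half-site of the cyclic AMP response element) in capitals where they occur on either strand.
Castor2, chr5:134099498-134099797, plus strand: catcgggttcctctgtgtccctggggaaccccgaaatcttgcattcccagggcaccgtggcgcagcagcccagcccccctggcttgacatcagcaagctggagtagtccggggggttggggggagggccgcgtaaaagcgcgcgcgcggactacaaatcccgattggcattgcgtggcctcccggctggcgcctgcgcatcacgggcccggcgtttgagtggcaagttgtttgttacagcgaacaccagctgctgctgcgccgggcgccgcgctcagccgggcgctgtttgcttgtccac
Castor1, chr11:4217975-4218274, plus strand: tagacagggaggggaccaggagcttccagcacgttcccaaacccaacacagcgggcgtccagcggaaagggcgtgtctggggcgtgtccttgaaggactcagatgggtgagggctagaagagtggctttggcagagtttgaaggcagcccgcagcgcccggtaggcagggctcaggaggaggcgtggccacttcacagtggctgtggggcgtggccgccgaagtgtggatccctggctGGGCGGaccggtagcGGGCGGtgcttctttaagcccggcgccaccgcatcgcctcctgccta
Nprl2, chr9:107541959-107542258, plus strand: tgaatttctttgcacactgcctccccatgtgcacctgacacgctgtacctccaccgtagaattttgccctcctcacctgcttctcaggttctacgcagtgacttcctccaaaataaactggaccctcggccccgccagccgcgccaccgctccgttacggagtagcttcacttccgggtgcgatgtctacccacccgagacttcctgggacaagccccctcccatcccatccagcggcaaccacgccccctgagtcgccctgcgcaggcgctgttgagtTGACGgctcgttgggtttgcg
Nprl3, chr11:32267658-32267957, minus strand: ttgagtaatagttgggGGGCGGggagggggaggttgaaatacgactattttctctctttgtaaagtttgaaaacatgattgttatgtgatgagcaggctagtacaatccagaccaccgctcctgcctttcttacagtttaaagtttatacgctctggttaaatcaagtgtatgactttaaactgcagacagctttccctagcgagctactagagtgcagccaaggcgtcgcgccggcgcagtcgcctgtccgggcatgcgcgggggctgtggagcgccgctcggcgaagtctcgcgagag
The Castor2 window was GC-rich, at 66.3% G and C with 28 CpG sites, and so was that of Castor1 at 65.7% with 21. Nprl2 stood at 60.7% with 21 CpG sites and Nprl3 at 52% with 20, against medians of 52.7% and 7 over all 32851 windows of this length. GGGCGG was found in 8 of the 10 windows of the members, where Sesn1 has 2 windows and Deptor was not matched, and 35.7% of all windows hold it. These letters occur in neither the Castor2 nor the Nprl2 window. TGACG occurred in the Nprl2 window and in 1 of the Sesn1 windows, and in 20.8% of all windows. CACGTG (7.15% of all windows) and TGATGNAA (3.97%) were found in none of the members' windows, and GTAAACA (3.65%) in 1 Sesn1 window. A match describes the letters only.

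Values are reads divided by the size factor of the library, called normalised reads below. Libraries held 23930164 to 36515331 reads, and the rarest member, Castor1, still had 48 to 147 reads per library. Genes that mark cortical excitatory neurons were present throughout, with none of the 6 at 0 in any library and a summed level of 21596 to 70876. Tbr1 itself ranged from 844.5 to 3309 normalised reads in vehicle-treated WT libraries (median 2387) and from 1167 to 4980 in vehicle-treated HT libraries (median 4342). Under fluoxetine it ranged from 3191 to 3839 in WT (median 3669) and from 3841 to 5238 in HT (median 4742), without overlap. Under lithium it ranged from 1862 to 3883 in WT (median 3019) and from 2241 to 5241 in HT (median 4316). The HT median was thus the higher under each treatment. An altered codon does not remove the message, so these levels do not check the genotype. A list of 7 olfactory bulb markers differed widely between libraries and moved with treatment: its summed level ran from 5456 to 23730 in the 10 vehicle WT libraries, 364.4 to 23850 in vehicle HT, 218.7 to 2381 in fluoxetine WT, 161.4 to 3884 in fluoxetine HT, 1268 to 15810 in lithium WT and 96.6 to 15450 in lithium HT. None of the 7 was at 0 in any library. With fluoxetine in WT, limma called lower 7 of 7 bulb markers, 6 of 6 of meninges, 4 of 5 of astrocytes (1 higher), 3 of 6 of choroid plexus and 2 of 5 of endothelium (1 higher). It called higher 5 of 6 of cortical excitatory neurons (1 lower), 3 of 5 of microglia, 3 of 8 of striatum (2 lower) and 1 of 5 of oligodendrocytes, and none of 3 of blood. With fluoxetine in HT it called lower 7 of 7 bulb markers and 3 of 8 of striatum. Meninges and choroid plexus each had 2 of 6 lower. It called higher 3 of 5 of microglia, 2 of 6 of cortical excitatory neurons (1 lower) and 1 of 5 of endothelium. Astrocytes had 2 of 5 lower and 1 higher, and blood and oligodendrocytes had none called. With lithium, limma called none of the 7 bulb markers in either genotype, at median log2 differences of -1.17 in WT and -0.80 in HT. In WT it called higher 4 of 6 of cortical excitatory neurons and 3 of 8 of striatum. It also called higher 3 of 3 of blood and 3 of 5 of microglia. Astrocytes and endothelium each had 1 of 5 higher and 1 lower, and meninges 1 of 6 lower. In HT it called higher 3 of 5 of microglia, 1 of 3 of blood and 1 of 5 of endothelium. Astrocytes had 1 higher and 1 lower, and cortical excitatory neurons 1 lower. The 10 vehicle male libraries also formed a cluster of their own, with 6.31% to 8.85% of reads from mitochondrial genes (median 7.26%) against 4.39% to 7.72% (median 5.12%) in the other 50. For males, vehicle treatment and this cluster cannot be told apart, so female values are given beside the main averages over the sexes. In bulk tissue, fewer cells of a type and less RNA per cell cannot be told apart.

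Levels of the members relative to the length of all annotated exons of the gene spanned a wide range. Per kilobase of exon sequence, the mean over all 60 libraries was 841 normalised reads for Ddit4, 671 for Castor2, 433 for Sesn1, 366 for Sesn3, 344 for Nprl2, 144 for Depdc5, 123 for Sesn2, 116 for Deptor, 104 for Nprl3 and 50.8 for Castor1. On this per-length scale Castor2 was thus far above its paralogue Castor1, and among the GATOR1 subunits Nprl2 stood above Depdc5 and Nprl3. The length used joins the exons of all annotated transcripts and need not be that of any single transcript. Before division by length, the mean normalised reads were 1699 for Depdc5, 785 for Nprl3 and 692 for Nprl2, so the order of these subunits depends on it. The exons of Nprl3 share 1340 bases with Mpg on the opposite strand, and those of Deptor share 303 bases with Gm9920, also on the opposite strand. The kit keeps the strand, but whether the counting used it is not given in the sources used here, so the levels of Nprl3 and Deptor are uncertain to that extent.

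Castor2 (ENSMUSG00000015944, chr5:134099711-134144343, plus strand, GRCm38) separated lithium from fluoxetine in all libraries. Its normalised reads ran from 5130 to 6659 (median 5792) in the 20 lithium libraries, from 4472 to 5382 (median 4815) in the 20 vehicle libraries and from 4030 to 4982 (median 4507) in the 20 fluoxetine libraries. All 20 lithium libraries lay above the highest fluoxetine library, and 17 of them lay above the highest vehicle library. Fluoxetine and vehicle overlapped, with 8 of 20 vehicle libraries above every fluoxetine library.

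Among WT females, Castor2 measured 5382, 5174, 4793, 5015 and 5039 normalised reads under vehicle. Under fluoxetine WT females had 4755, 4974, 4625, 4453 and 4502, and under lithium 5458, 5842, 5638, 5132 and 6383. The vehicle females overlapped with both drug groups, though only 1 of the 5 lithium values and 1 of the 5 fluoxetine values fell within the vehicle range of 4793 to 5382. In HT females the vehicle values were 4572, 4573, 4837, 5253 and 5129.7, the fluoxetine values 4499.9, 4408, 4872, 4786 and 4511, and the lithium values 5688, 5773, 6359.9, 6334 and 6659. Here every lithium library was above every vehicle library, and the fluoxetine libraries lay within or below the vehicle range. WT males had 4993, 4472, 4792, 4583 and 4593 under vehicle, 4030.4, 4982, 4229, 4671 and 4383 under fluoxetine and 5782, 5804, 5229.9, 6071 and 5695 under lithium. HT males had 5235, 4770.0, 4854, 4654 and 4535, 4207, 4567, 4867, 4201 and 4430.3 and 5129.9, 5461, 5857, 5801 and 6032 in the same order of treatments. In WT males lithium and vehicle did not overlap, whereas in HT males 1 lithium library lay within the vehicle range.

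**Figure D1:**
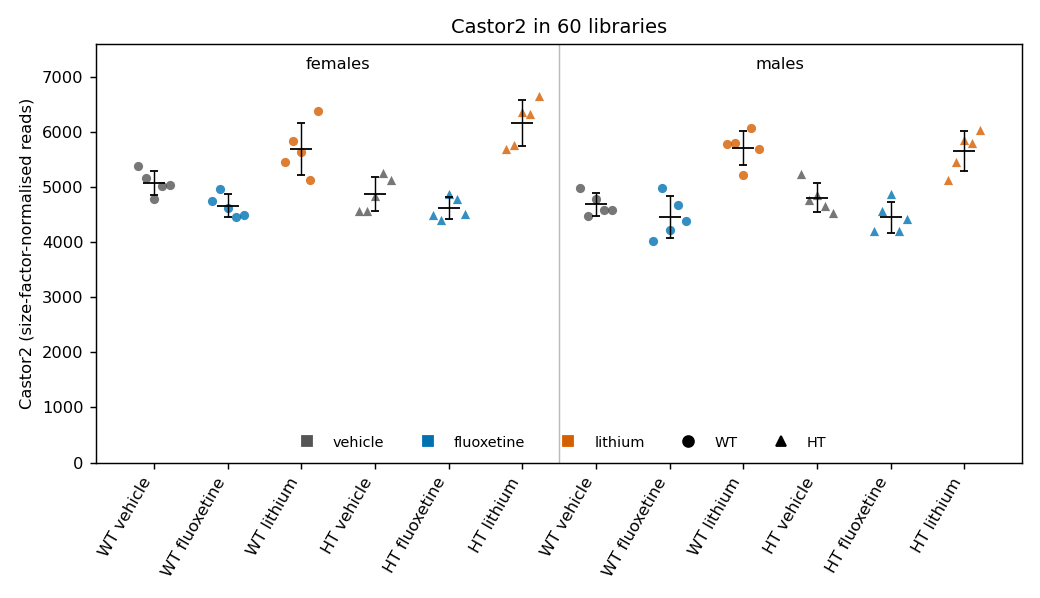
Castor2 in size-factor-normalised reads (vertical axis, from 0) in each of the 60 libraries, by genotype and treatment, females left and males right; black bars are the mean and SD of 5 libraries. The 20 lithium libraries lie between 5130 and 6659, all above the highest fluoxetine library at 4982.

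Ordered by group mean, the 4 lithium groups came first, the 4 vehicle groups next and the 4 fluoxetine groups last. The means ran from 6163 ± 416 (SD, n = 5) in HT lithium females to 4454 ± 278 in HT fluoxetine males, a ratio of 1.38. Of the 11 steps between neighbours in this order, 9 were smaller than the larger SD of the pair. The steps that exceeded it were from HT lithium females to WT lithium males at 5717 ± 306, and from HT lithium males at 5656 ± 360, the lowest lithium group, to WT vehicle females at 5081 ± 217, the highest vehicle group. Apart from HT lithium females, neighbouring groups within a treatment thus did not differ beyond their spread.

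As log2 differences from vehicle averaged over the sexes, Castor2 was 0.22 higher with lithium in WT (SE 0.039) and 0.29 higher in HT, or 1.17-fold and 1.22-fold. With fluoxetine it was lower, by a log2 difference of -0.10 in WT and -0.09 in HT, or 0.933-fold and 0.937-fold. Directly against lithium, fluoxetine libraries stood at -0.32 in WT and -0.38 in HT, and the groups did not overlap in any of the 4 combinations of genotype and sex. The vehicle libraries enter both drug differences, so these are not independent. HT minus WT was -0.01 under vehicle, -0.01 under fluoxetine and 0.05 under lithium, each with an SE of 0.039. The genotype by lithium term was 0.06 with an SE of 0.055.

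Among females alone, where the vehicle male cluster takes no part, the lithium difference was 0.16 in WT (SE 0.055) and 0.34 in HT, and the fluoxetine difference was -0.12 and -0.08. Across the 60 libraries Castor2 had a Pearson r of 0.07 with the bulb list, but around the 12 group means this was -0.62. With the bulb list added to the fit as covariates, the fluoxetine difference of Castor2 was -0.25 in WT and -0.18 in HT, and the lithium difference was 0.18 in WT and 0.26 in HT. The lithium differences were close to the same size with and without the covariates, and the fluoxetine difference in WT was more than doubled. The bulb list itself differed by treatment, at a mean log2 level in WT of 10.01 under vehicle, 5.63 under fluoxetine and 8.83 under lithium. The covariates thus cannot tell bulb content and drug apart, and the part of bulb tissue in the Castor2 values was not tested. Leaving out any single library of the 2 groups compared left the lithium difference between 0.20 and 0.24 in WT and between 0.27 and 0.30 in HT. With 1 library left out the fluoxetine difference lay between -0.12 and -0.08 in WT and between -0.11 and -0.08 in HT.

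The genes whose levels followed Castor2 most closely over the 60 libraries, by Pearson r on the log2 scale among 12860 genes, were Banp (0.74), Zmynd8 (0.73), Rnf216 (0.72), Paqr8 (0.69) and Hbs1l (0.69). Those most opposed were Nxpe4 (-0.69), Cldn10 (-0.66), Errfi1 (-0.66), Fbxo16 (-0.66) and Elmsan1 (-0.65). Around the 12 group means these fell to 0.40, 0.50, 0.48, 0.29 and 0.41 for the first 5 and to -0.12, -0.29, -0.03, -0.14 and -0.31 for the others, so much of the likeness lay between the groups. Of the other members, Depdc5 came closest with an r of 0.67 and rank 10 of 12860, and its r around the group means was 0.32. Castor1 had an r of 0.33 and rank 729, and Ddit4 had -0.27. The points share the groups and size factors, and these values describe the libraries only.

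Castor1 (ENSMUSG00000020424, chr11:4218225-4222409, plus strand), the arginine sensor, was the least abundant and most variable member, at 48.3 to 135 normalised reads. In WT it rose 1.40-fold with lithium over both sexes, from 75.6 ± 21.2 to 104 ± 16.7 (SD, n = 10 each), a log2 difference of 0.48 with an SE of 0.106 (limma, adjusted p = 0.000262). WT vehicle males had 53.0, 71.1, 67.3, 66.4 and 61.1 normalised reads of Castor1 and WT lithium males 121, 102, 93.0, 123 and 89.7. WT vehicle females had 82.2, 115, 108, 78.3 and 53.4 and WT lithium females 135, 95.7, 100.5, 94.0 and 84.4. The males did not overlap, while the females did, with a log2 difference of 0.25 (SE 0.149, adjusted p = 0.472 in limma). In HT the difference over both sexes was 0.21 (adjusted p = 0.152 in limma), made of 0.74 in males and -0.32 in females. With fluoxetine, Castor1 fell in WT females, by a log2 difference of -0.37 (SE 0.149, limma adjusted p = 0.0427), and the vehicle and fluoxetine libraries overlapped. Leaving out fluoxetine female 1, 3, 4 or 5 or vehicle female 1, 2 or 3 ended that call, with adjusted p from 0.0598 to 0.183, and so did the bulb covariates at -0.28 (adjusted p = 0.635). For fluoxetine in WT females those covariates took the calls over all genes from 7084 to 4. A call lost there is thus not particular to the members.

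The Sestrin genes Sesn1, Sesn2 and Sesn3 passed the test for neither drug in either genotype over both sexes. Sesn1 (ENSMUSG00000038332, chr10:41809935-41908424, plus strand), a p53 target, had a log2 difference of -0.11 (SE 0.049) with fluoxetine in WT, at 1677 ± 116 against 1804 ± 131 (SD, n = 10 each), with an adjusted p of 0.0548 in limma, and -0.11 in females (adjusted p = 0.212). The difference passed the threshold in edgeR on the recovered reads (adjusted p = 0.0362). In limma it passed when 1 library was left out, for 7 choices of it: fluoxetine female 2, fluoxetine males 1, 2 and 4, vehicle female 4, and vehicle males 1 and 5, with adjusted p from 0.0232 to 0.0457. Sesn1 was lower with fluoxetine than with lithium in WT, by -0.13 over both sexes (limma adjusted p = 0.0495) and by -0.12 in females (adjusted p = 0.252). The first was a call that ended, with adjusted p from 0.0529 to 0.111, when any of 13 of the 20 libraries was left out. It held only without fluoxetine female 2, fluoxetine males 1, 2 and 4, lithium females 2 and 5, or lithium male 2. Sesn2 (ENSMUSG00000028893, chr4:132492032-132510501, minus strand), the leucine sensor, had 4 drug differences between -0.0034 and 0.11 over both sexes and between -0.09 and 0.03 in females. With the bulb covariates its lithium differences were 0.18 in WT (adjusted p = 0.0104) and 0.13 in HT (adjusted p = 0.0465) in limma. Sesn3 (ENSMUSG00000032009, chr9:14275067-14333101, plus strand), a FOXO-induced Sestrin, rose with fluoxetine in WT females, from 5156 to 5703.5 on average.
The WT vehicle females had 5007, 5349, 4984, 5181 and 5257 normalised reads of Sesn3 and the WT fluoxetine females 5755, 5436, 6174, 5405 and 5747. The groups did not overlap, and the log2 difference was 0.14 (SE 0.049, limma adjusted p = 0.0181). Without the third vehicle library or the third fluoxetine library that adjusted p was 0.0564 and 0.0730, and with the bulb covariates 0.680.

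**Figure D2:**
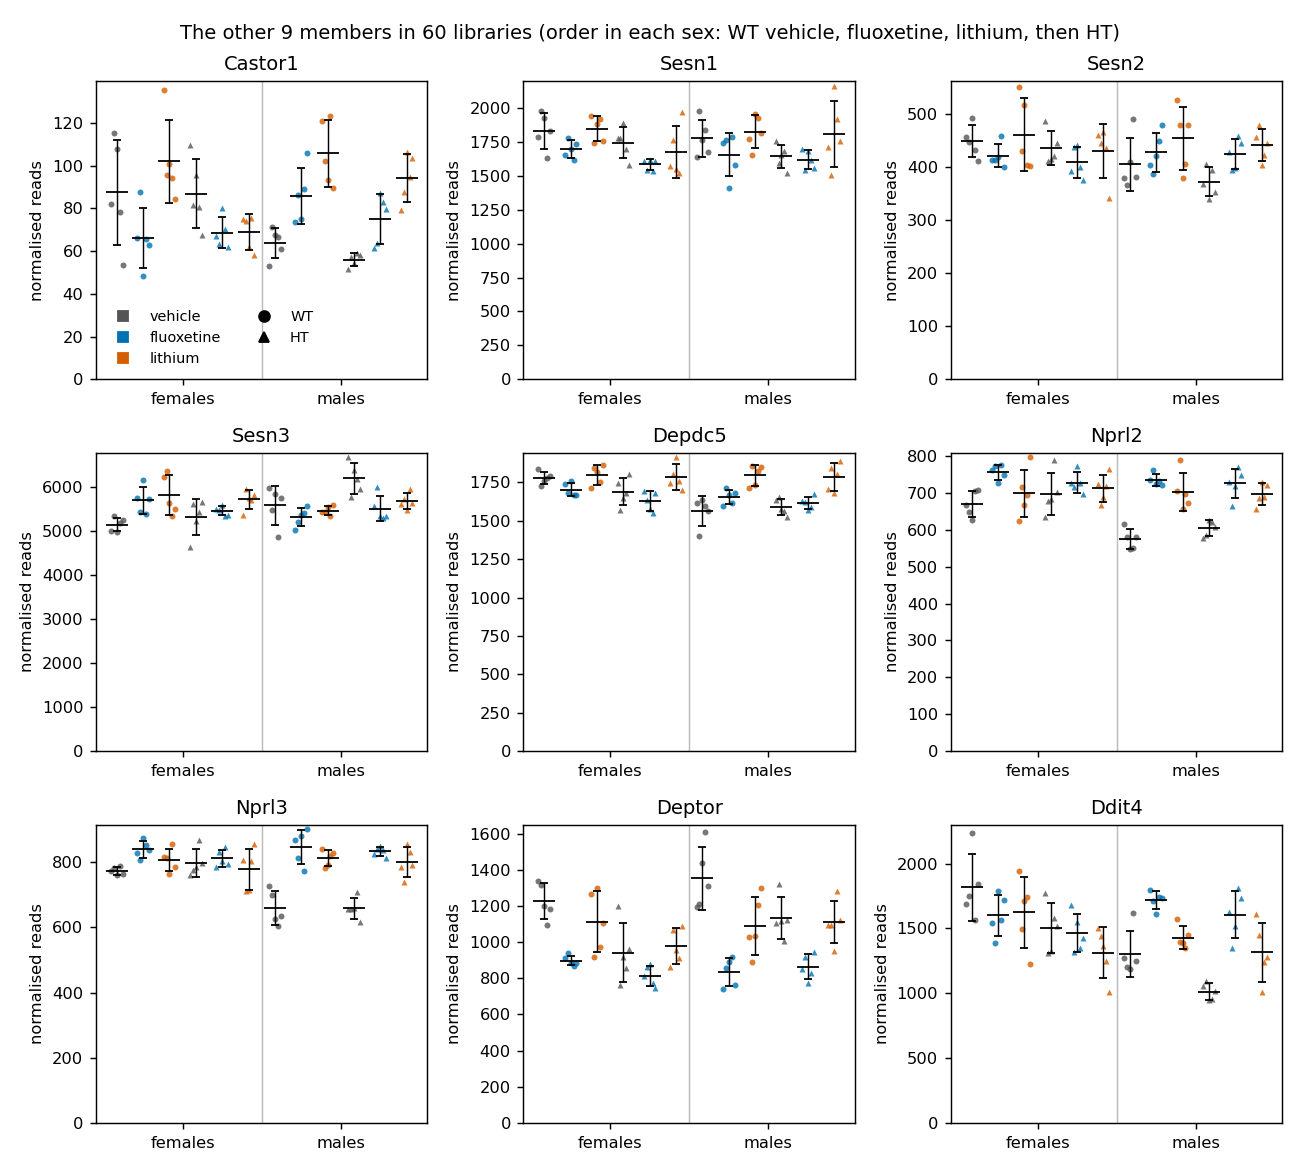
Size-factor-normalised reads (vertical axes, from 0) of the 9 tested genes in each of the 60 libraries, with the mean and SD of each group of 5 in black. Within each sex the order is WT vehicle, WT fluoxetine, WT lithium, HT vehicle, HT fluoxetine and HT lithium; Nprl2 and Nprl3 are lowest in vehicle males and Deptor is lowest under fluoxetine.

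The GATOR1 subunits Nprl2 and Nprl3 rose with both drugs in both genotypes when the sexes were averaged. With fluoxetine in WT, Nprl2 (ENSMUSG00000010057, chr9:107542226-107545706, plus strand) rose, with a log2 difference of 0.26 with an SE of 0.036 (limma adjusted p = 3.95e-08). WT vehicle females had 668, 648, 626, 706 and 707 normalised reads of Nprl2 and WT fluoxetine females 761, 773, 726, 775 and 748. WT vehicle males had 616, 581, 547, 552 and 581 and WT fluoxetine males 736, 762, 723, 732 and 722. The vehicle and fluoxetine libraries overlapped in neither sex, and the vehicle males were the lowest of the 12 groups. Nprl3 (ENSMUSG00000020289, chr11:32225628-32267707, minus strand) rose 1.18-fold in the same comparison, by 0.24 (SE 0.034, limma adjusted p = 4.88e-08). In the other 3 comparisons the log2 differences of Nprl2 were 0.16 (fluoxetine in HT), 0.17 (lithium in WT) and 0.12 (lithium in HT). Those of Nprl3 were 0.18, 0.18 and 0.12 in the same order, and each of the 6 passed the limma test. Over the 60 libraries Nprl2 and Nprl3 had an r of 0.79 with each other, and 0.31 around the group means.

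In females alone, Nprl2 rose with fluoxetine in WT by 0.17 (SE 0.052, limma adjusted p = 0.00762) and Nprl3 by 0.12 (SE 0.048, adjusted p = 0.0421). Neither passed in the other 3 female comparisons, where Nprl2 lay between 0.03 and 0.06 and Nprl3 between -0.04 and 0.06. Both genes ran opposite to the bulb list, with an r of -0.65 for Nprl2 and -0.49 for Nprl3 over the 60 libraries. With the astrocyte list r was -0.67 for Nprl2 (-0.73 around the group means, where the bulb list gave -0.57) and -0.40 for Nprl3, and the part of astrocytes in these results was not tested. With the bulb covariates the WT fluoxetine difference over both sexes was 0.12 for Nprl2 (limma adjusted p = 0.0142). That of Nprl3 was 0.16 (limma adjusted p = 0.00367). Both passed the threshold, but WT vehicle and WT fluoxetine libraries did not overlap in the bulb list. The covariates thus cannot tell bulb content and drug apart here. In WT females those covariates brought Nprl2 to 0.01 (adjusted p = 0.980) and Nprl3 to 0.03 (adjusted p = 0.925), where 4 of all genes were called. The Nprl3 call in WT females ended when any library but the second fluoxetine or the fourth vehicle female was left out, with adjusted p from 0.0533 to 0.102.

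Depdc5 (ENSMUSG00000037426, chr5:32863701-32994236, plus strand), the third GATOR1 subunit, rose with lithium in both genotypes and passed the test in neither fluoxetine comparison over both sexes. The log2 difference was 0.11 in WT (SE 0.027, limma adjusted p = 0.00126) and 0.12 in HT (limma adjusted p = 0.000636), or 1.08-fold and 1.09-fold. Depdc5 ran from 1680 to 1916 normalised reads (median 1804) in lithium libraries, from 1399 to 1834 (median 1642) in vehicle libraries and from 1551 to 1756 (median 1668) in fluoxetine libraries. Of the 20 lithium libraries, 12 lay above every fluoxetine library and 7 above every vehicle library. Against lithium directly, Depdc5 was lower with fluoxetine by -0.10 in WT (limma adjusted p = 0.0120) and -0.14 in HT (adjusted p = 0.00124). The female differences were -0.08 and -0.13 (adjusted p = 0.191 and 0.116). The bulb covariates left the lithium differences at 0.10 in WT and 0.12 in HT (adjusted p = 0.00332 and 0.000335). Depdc5 hardly followed the bulb list, with an r of 0.13 over the 60 libraries and 0.03 around the group means. Its r was 0.41 and -0.08 with the blood list and 0.29 and 0.58 with the oligodendrocyte list. The part of these lists in the Depdc5 results was not tested. In females the lithium difference was 0.02 in WT (adjusted p = 0.864) and 0.08 in HT (adjusted p = 0.525 in limma), so the lithium calls of Depdc5 were not made in females alone.

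Deptor (ENSMUSG00000022419, chr15:55112317-55259271, plus strand), the mTOR-binding inhibitor, had the largest fall among the tested members in the comparison of fluoxetine with vehicle in WT. It went from 1290 ± 148 to 867 ± 65.1 normalised reads (SD, n = 10 each), a log2 difference of -0.57 with an SE of 0.070 (limma adjusted p = 4.00e-09). WT vehicle females had 1339, 1317, 1202, 1096 and 1185 normalised reads of Deptor and WT fluoxetine females 914, 938, 886, 869 and 887. WT vehicle males had 1197, 1211, 1437, 1607 and 1311 and WT fluoxetine males 739, 859, 893, 918 and 765. Neither sex showed overlap. In HT mice the fall with fluoxetine was -0.29 (limma adjusted p = 0.000866), and with lithium in WT it was -0.23 (adjusted p = 0.00673). In females alone these were -0.19 (adjusted p = 0.226) and -0.15 (adjusted p = 0.502), neither past the threshold. In HT with lithium the difference was 0.02 (adjusted p = 0.889). Against lithium directly, Deptor was lower with fluoxetine by -0.34 in WT and -0.31 in HT (limma adjusted p = 0.00116 and 0.00560), and in females by -0.30 and -0.26 (adjusted p = 0.0749 and 0.302).

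In WT females alone Deptor fell with fluoxetine by -0.45 (SE 0.099, limma adjusted p = 0.00113). Deptor moved with the bulb list, with an r of 0.72 over the 60 libraries and 0.46 around the group means. It also moved with the astrocyte list (0.67 and 0.41) and the meninges list (0.56 and 0.36). None of the astrocyte or meninges markers was at 0 in any library. From vehicle to fluoxetine in WT the summed level of the meninges list went from 5860-11149 to 4177-5963 and that of the astrocyte list from 33494-46439.6 to 29208-33503, and the part of these lists in the Deptor result was not tested. With the bulb covariates the fluoxetine difference of Deptor over both sexes was smaller, at -0.32 in WT (limma adjusted p = 0.00128). In HT it was -0.18 (limma adjusted p = 0.0205). The WT vehicle and WT fluoxetine libraries did not overlap in the bulb list, so these covariates cannot tell bulb content and drug apart. With those covariates the lithium call in WT ended at -0.12 (adjusted p = 0.133), and so did the WT female fluoxetine call at -0.17 (adjusted p = 0.627). Across treatments Deptor lay between 739 and 945 normalised reads in the 20 fluoxetine libraries, and 17 of 20 vehicle and 16 of 20 lithium libraries lay above that range.

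**Figure D3:**
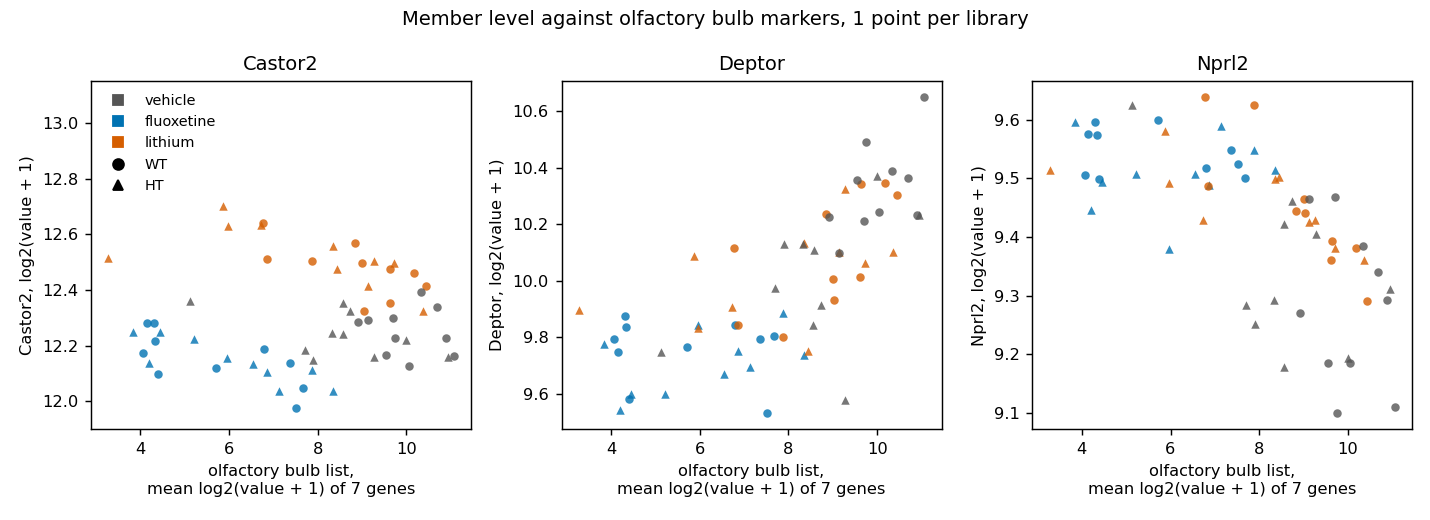
Log2(value + 1) of Castor2, Deptor and Nprl2 (vertical axes, not starting at 0) against the mean log2(value + 1) of the 7 olfactory bulb markers, 1 point per library, coloured by treatment with circles for WT and triangles for HT. Castor2 is higher in every lithium library than in every fluoxetine library. The fluoxetine libraries reach a marker level of 8.34 and the lithium libraries 10.4, so the upper marker levels hold no fluoxetine library. Deptor is higher and Nprl2 lower where the markers are higher (r of 0.72 and -0.65 over 60 libraries).

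Ddit4 (ENSMUSG00000020108, chr10:59949669-59951834, minus strand), the stress-induced inhibitor, rose with fluoxetine in HT, from 1257 ± 291 to 1536 ± 173 normalised reads (SD, n = 10 each). The log2 difference was 0.31 with an SE of 0.077 (limma adjusted p = 0.00107). HT vehicle males had 1055, 1091, 944, 952 and 1018 normalised reads of Ddit4 and HT fluoxetine males 1627, 1349, 1516, 1808 and 1735. HT vehicle females had 1774, 1311, 1327, 1579.6 and 1518 and HT fluoxetine females 1678, 1320.1, 1548, 1349 and 1429. The males did not overlap and differed by 0.66, while the females overlapped and differed by -0.03 (SE 0.109, limma adjusted p = 0.877). The call over both sexes therefore rested on the comparison with the vehicle males. In WT the fluoxetine difference was 0.11 over both sexes (adjusted p = 0.189), made of 0.41 in males (adjusted p = 0.00133) and -0.18 in females (adjusted p = 0.189). With the bulb covariates the average over both sexes was 0.42 (adjusted p = 9.74e-05 in limma).

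Counted together, fluoxetine in WT raised 2 of the 9 tested members and lowered 1, where 31.7% of the 17781 genes tested were called higher and 31.5% lower. Fluoxetine in HT raised 3 and lowered 1, with 20.2% and 20.6% of all genes called. Lithium in WT raised 4 and lowered 1, with 21.8% and 20.9% of all genes called. Lithium in HT raised 3 and lowered none, with 12.6% and 10.6% of all genes called. The median log2 difference of the 9 members was 0.02, 0.04, 0.10 and 0.11 in these 4 comparisons, and that of all genes -0.01, 0.00, 0.00 and 0.00. With shares this high among all genes, these few calls do not set the members apart.

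Fluoxetine in WT females raised Nprl2, Nprl3 and Sesn3 and lowered Castor1 and Deptor, beside 20.9% and 19.0% of all genes. With the bulb covariates limma called 0 of the 9 members there, and 4 of all genes. In the 3 other female comparisons limma called none of the 9 members. All genes were called at 0% for fluoxetine in HT females, 0.00562% for lithium in WT females and 0.0169% for lithium in HT females. At an unadjusted p below 0.05 there were 1, 1 and 3 members, and edgeR and DESeq2 called 0 as well. Fluoxetine against lithium lowered 4 members in WT (Castor1, Sesn1, Depdc5 and Deptor) and raised none, beside 8.35% of all genes higher and 10.5% lower. In HT it lowered 2 (Depdc5 and Deptor) and raised none, beside 2.10% and 2.32%.

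**Figure D4:**
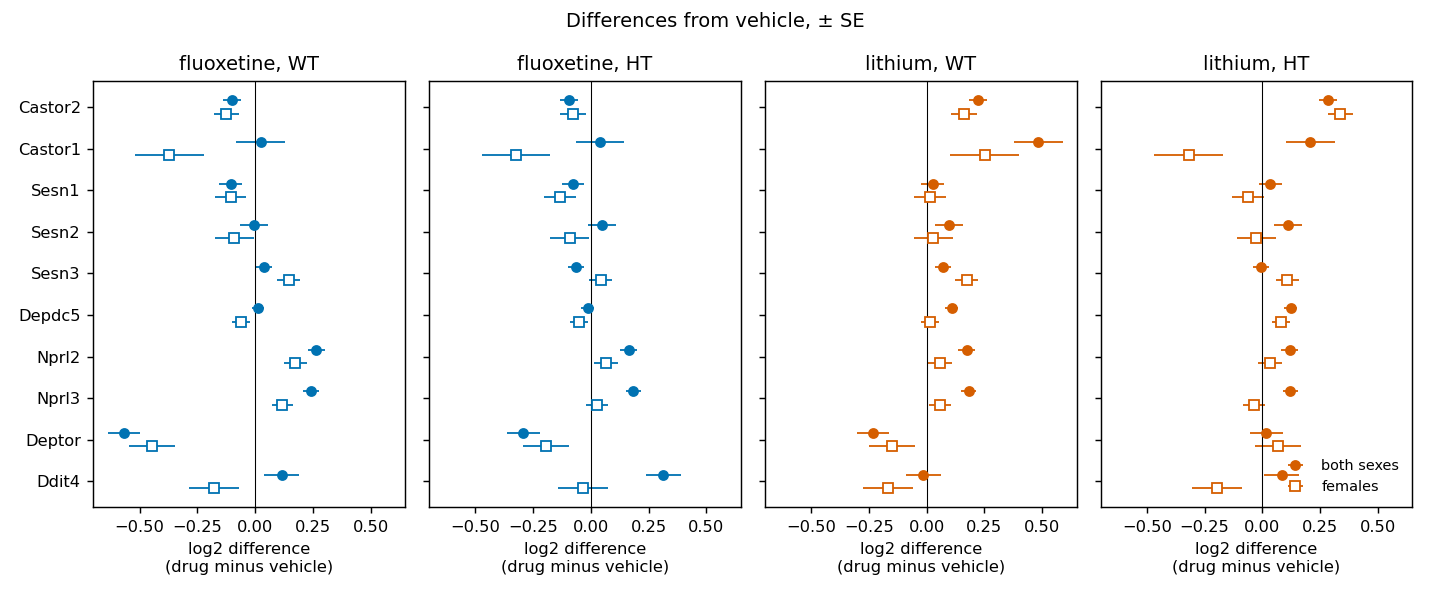
Log2 difference from vehicle (horizontal axes, drug minus vehicle, bars ± SE) of the 10 members for fluoxetine and lithium in WT and HT; filled circles average the sexes and open squares are females alone. Castor2 lies right of 0 with lithium and left of 0 with fluoxetine in both sets, while Nprl2 and Nprl3 are nearer 0 in females.

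Genotype made no called difference among the 9 members in limma. HT against WT called 0 under vehicle, 0 under fluoxetine and 0 under lithium, beside 0.0337%, 0.0112% and 0.00562% of all genes, with 3, 0 and 2 members at an unadjusted p below 0.05. edgeR also called 0 in each. DESeq2 called 2 under vehicle, beside 805 of all genes, and 0 in the others. Under vehicle, Deptor had a difference of -0.32 (SE 0.070, adjusted p = 0.0629) and Ddit4 -0.32 (SE 0.077, adjusted p = 0.0667) in limma, and these are the 2 that DESeq2 called (adjusted p = 0.0112 and 0.0225). In females the 2 differences were -0.40 and -0.27 (adjusted p = 0.613 for each in limma). Without the first HT vehicle female, a library with one of the 2 highest bulb levels, Deptor was at -0.37 (adjusted p = 0.00311), Ddit4 at -0.35 (adjusted p = 0.00350) and Sesn3 at 0.12 (adjusted p = 0.00633) in limma. Deptor was also called without HT vehicle male 2, WT vehicle female 4 or 5, or WT vehicle male 1 or 2 (adjusted p from 0.0229 to 0.0499). Ddit4 was called without HT vehicle male 2, WT vehicle female 4 or WT vehicle male 1 (0.0284 to 0.0309), and Sesn3 without HT vehicle male 2 or WT vehicle male 1 (0.0348 to 0.0395). With 1 library left out at a time, limma called from 1 to 6275 of all genes, where the fit to all libraries called 6. These calls are thus not particular to the members. The mean log2 level of the bulb list was 10.01 in vehicle WT and 8.52 in vehicle HT libraries, and with the bulb covariates none of the 9 was called. The genotype by drug interactions called 0 members and 0% of all genes for fluoxetine and 0 members and 0% for lithium, with 2 and 1 members at an unadjusted p below 0.05. edgeR and DESeq2 called none of the members there. The largest of these terms were those of Deptor, at 0.28 (SE 0.099, adjusted p = 0.332) for fluoxetine and 0.25 (adjusted p = 0.812) for lithium.

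The drug response differed between the sexes for 6 of the 9 members in at least 1 test. The term is the male drug difference minus the female one. It was above 0 for 4 members and below 0 for 1 with fluoxetine in WT, beside 13.5% and 13.3% of all genes. For lithium in WT these were 3 and 1 (13.5% and 14.3% of all genes), for fluoxetine in HT 4 and 1 (11.4% and 12.3%) and for lithium in HT 3 and 1 (12.6% and 13.8%). Sesn3 was the member below 0 in each of the 4, from -0.23 to -0.20, and Nprl3 was above 0 in each, from 0.24 to 0.32. Since vehicle males form the cluster described above, sex and that cluster cannot be told apart in these terms. For Castor2 the fluoxetine term was 0.05 in WT and -0.03 in HT, and the lithium term 0.13 and -0.11, with an SE of 0.078.

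The rest of the pathway was read from 11 lists with 83 measured genes. In WT with fluoxetine, 38 of the 83 rose and 20 fell, or 45.8% and 24.1% beside 31.7% and 31.5% of all genes, at a median of 0.07. In HT with lithium 22 rose and 7 fell, or 26.5% and 8.43% beside 12.6% and 10.6% of all genes, also at a median of 0.07. Fluoxetine in HT gave 34 and 13, or 41.0% and 15.7% beside 20.2% and 20.6%, and lithium in WT 35 and 15, or 42.2% and 18.1% beside 21.8% and 20.9%. The same shares of all genes stand behind the counts of each list below. In females 18 rose and 16 fell with fluoxetine in WT, and limma called 0 of the 83 in the other 3 female comparisons. All genes were called at 20.9% higher and 19.0% lower in the first of these and at most 0.0169% in the others.

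Among the genes of GATOR2, the complex that the Castor proteins bind, 3 of 5 rose and 1 fell with fluoxetine in WT, and 3 rose and 2 fell with lithium in HT. Wdr24 led in both, at 0.26 and 0.29, and Sec13 rose by 0.12 and 0.11. Of the mTORC1 complex itself, 2 of 4 rose with fluoxetine in WT, Rptor by 0.22 and Akt1s1 by 0.14. All 4 rose with lithium in HT, with Rptor at 0.13 and Mlst8 at 0.11, while none of the 4 was called with lithium in HT females. KICSTOR, which tethers GATOR1 to the lysosome, had 1 of 3 up and 1 down with fluoxetine in WT, Kptn at 0.11 and Itfg2 at -0.25. In WT females with fluoxetine, limma called 0 of 5 GATOR2 genes. It called 0 higher and 1 of 4 lower for the mTORC1 complex, and 0 higher and 2 of 3 lower for KICSTOR. Of all genes, 20.9% were called higher and 19.0% lower there.

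Of the 9 Rag and Ragulator genes, 6 rose and 2 fell with fluoxetine in WT, with Lamtor1 at 0.24 and Lamtor2 at 0.25. With lithium in HT 2 rose and none fell, Lamtor1 and Lamtor4 both at 0.18. The FLCN and FNIP genes, which act on the Rag GTPases, were listed with Slc38a9, and this list of 4 measured genes was mixed. Of the 4, 1 rose and 2 fell with fluoxetine in WT, and 1 rose and 1 fell with lithium in HT. Flcn rose by 0.12 and 0.20 and Fnip1 fell by 0.16 and 0.11 in these comparisons. In the TSC and Rheb list 3 of 5 rose and 1 fell in both comparisons. Tsc1 (0.21) and Tsc2 (0.14), which inhibit Rheb, rose with fluoxetine in WT, and with lithium in HT Tsc2 rose by 0.12 and Rheb, the activator of mTORC1, fell by 0.16. For mTORC2, 1 of 4 rose with fluoxetine in WT, Prr5 at 0.41, and 0 of 4 with lithium in HT.

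Substrates and outputs of mTORC1 split evenly, with 5 of 13 up and 5 down for fluoxetine in WT and 3 up and 3 down for lithium in HT. Eif4ebp1, a translation repressor, rose by 0.63 with fluoxetine in WT. Rps6kb1, which encodes S6 kinase, fell by 0.19 and 0.16, and Pdcd4, a translation inhibitor degraded after S6 kinase acts on it, fell by 0.19 with lithium in HT. Of the 11 amino acid transporters 5 rose and 5 fell with fluoxetine in WT, and 3 rose with lithium in HT. Slc3a2, the heavy chain of the large neutral amino acid exchanger, rose by 0.18 and 0.10, Slc38a2 fell by 0.43 with fluoxetine in WT, and Slc36a1 rose by 0.27 with lithium in HT. Of 12 ATF4 targets, 5 rose and 1 fell with fluoxetine in WT, with Chac1 at 0.63 and Asns at 0.51, and 1 rose with lithium in HT, Chac1 at 0.21. Of 13 glucocorticoid- and FOXO-induced genes 6 rose and 2 fell with fluoxetine in WT, with Foxo3 at 0.29 and Cdkn1a at -0.92, and 1 rose with lithium in HT, Zbtb16 at 0.45. These calls are from limma over both sexes, share their vehicle libraries with the members' calls, and were made where the bulb list and the vehicle male cluster also differ, whose part in them was not tested.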

How the data were processed

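RNA-seq of 60 mouse prefrontal cortex libraries was analysed. The deposited values are 1 signal for each gene in each library. Each value was a whole multiple of a step of its column (tolerance 1e-06, 100% of values), so values are gene-level reads divided by a size factor (0.818 to 1.33). The submitters' processing notes list Salmon 0.11.2, R 3.6.0, DESeq2 1.19.11 and build GRCm38, without their roles. Annotation and gene filters: not given in the sources used here.

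Groups came from the sample titles. Tests used limma 3.58.1 on log2(value + 1) (R 4.3.3, two-sided, mean-variance trend, 12 group means, all 60 libraries) over the 17781 genes that reached 10 in 5 or more libraries. Benjamini-Hochberg adjustment was made per contrast, and an adjusted p below 0.05 was called. Fold changes on this scale understate those of low genes. All 10 members passed the filter. The test was checked on simulated data, drawn for each gene on its own. Those data hold no shared bulb differences and no vehicle male cluster, so the check does not cover them.

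The members, the 11 pathway lists (85 genes, 83 measured), the 10 marker lists and the rule for named genes were chosen with earlier results of these data known. By that rule all members are named, and of each pathway list up to 2 called genes with the smallest p for fluoxetine in WT and lithium in HT. One result that the rule covers is not reported here. Also named are the 5 genes most and the 5 least like Castor2 in Pearson r, with a mean of at least 50. Alternatives were a pseudocount of 5, no filter, quantile normalization, a replicate block, 2 covariates made from the olfactory bulb markers (their mean on the log2 and on the linear scale), count tests on the recovered reads (edgeR 4.0.16, DESeq2 1.42.0), and leaving out each library. Chosen after seeing the data were females without the vehicle male libraries, and leaving out the 2 libraries highest in the bulb list. Counts of the 120 pairs of libraries within groups differed beyond sampling noise (chi-square per degree of freedom from 3.11), so every library was counted.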

Additional observations from a re-analysis of the deposited data

Results flagged for a closer look

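In 120 groups of 5 tested for a single extreme library, 2 values stood apart, where chance gives about 1 in 20. Sesn2 was at 340.5 normalised reads in the fifth HT lithium female, with the other 4 between 436 and 466. Ddit4 was at 1616 in the fourth WT vehicle male, with the other 4 between 1189 and 1268, and this library is one of the 2 highest in the bulb list.

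The drug response differed between the sexes by the interaction term in limma for 18 pairs of a member and a comparison, given as male minus female log2 differences. For fluoxetine in WT the terms were 0.79 for Castor1, -0.21 for Sesn3, 0.15 for Depdc5, 0.24 for Nprl3 and 0.58 for Ddit4. Lithium in WT gave -0.20 for Sesn3, 0.18 for Depdc5, 0.23 for Nprl2 and 0.25 for Nprl3. For fluoxetine in HT they were 0.73 for Castor1, -0.21 for Sesn3, 0.20 for Nprl2, 0.31 for Nprl3 and 0.69 for Ddit4. Lithium in HT gave 1.06 for Castor1, -0.23 for Sesn3, 0.32 for Nprl3 and 0.56 for Ddit4. In each of these the vehicle males are the separate cluster with a higher mitochondrial share, and the sexes and that cluster cannot be told apart.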

How the results depend on the processing

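The count of called members moved as follows. For fluoxetine in WT it was 3, and 5 with quantile normalization, under which Sesn3 reversed to -0.087 (adjusted p = 0.0269, limma). For fluoxetine in WT females it was 5, but 0 with the bulb covariates, under which the calls over all genes went from 7084 to 4. For HT against WT under vehicle it was 0, but 2 with DESeq2, 1 with quantile normalization and 3 without the 2 libraries highest in the bulb list. For fluoxetine against lithium in WT it was 4, and 2 with the bulb covariates, under which the calls over all genes went from 3351 to 879. By smaller steps, the count also went from 4 to 5 for fluoxetine in HT (quantile normalization, or without the 2 libraries highest in the bulb list). It went from 3 to 4 for fluoxetine in WT (bulb covariates, edgeR) and for lithium in HT (bulb covariates), and from 5 to 4 for fluoxetine in WT females (edgeR, quantile normalization, females without the vehicle males). Fluoxetine against lithium went from 2 to 3 in HT (bulb covariates, or without those 2 libraries), and in WT from 4 to 3 with no filter and to 5 without those 2 libraries. Leaving out each library gave 2 to 5 for fluoxetine in WT females and 0 to 3 for HT against WT under vehicle. Over all genes those fits called 4298 to 7883 and 1 to 6275. Without 1 library, calls were also gained for Sesn3 (fluoxetine in HT without HT vehicle female 1, and lithium in WT without WT lithium female 4 or WT vehicle male 1), for Nprl2 (fluoxetine against lithium in WT without WT lithium female 5 or male 2) and for Ddit4 (fluoxetine against lithium in HT without HT fluoxetine male 2, HT lithium female 1 or HT lithium male 1), with limma adjusted p from 0.0160 to 0.0472. The cause was not tested. Under quantile normalization or the bulb covariates 2 and 4 values of Castor2 moved by more than the spread between libraries. A pseudocount of 5 changed none of the 150 values of members, and no filter changed 1 call.

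The count tests on recovered reads (100% of values whole) called 11229 genes with edgeR and 11253 with DESeq2 for fluoxetine in WT, where limma called 11239, and 4168 and 4322 for lithium in HT, where limma called 4128. For HT against WT under vehicle limma called 6 genes, edgeR 9, DESeq2 805, and limma 3734 without the 2 libraries highest in the bulb list. With the bulb covariates fluoxetine in WT called 4317 genes.

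Same-numbered libraries of different groups did not deviate together (median r 0.02, from -0.82 to 0.82, and 12 of 60 libraries correlated best with their own number), so the numbers do not pair them. With the replicate block the counts of called members were unchanged except for fluoxetine against lithium in WT, where 3 were called in place of 4.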
